A study of Oryza sativa with 16 samples.

Results

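The response to low temperature of rice seeds that had already entered grain filling was read from 4 of the 16 arrays of the series, chosen by their labels. All 4 held RNA of whole seeds of the japonica cultivar Zhonghua 11 (ZH), which is sensitive to cold. The treated seeds (ZH 10D-2DC, 2 arrays) came from plants moved to 14°C for 2 days from 10 days after fertilization (DAF), and the seeds of the same age (ZH 12D, 2 arrays) from plants kept at normal temperature (28/22°C, day/night) until 12 DAF. The comparison therefore differed in temperature and not in age, and both groups were of 1 cultivar with no added gene. Seeds taken when the treatment began (ZH 10D) and seeds treated from 4 DAF (ZH 4D-2DC) with their controls of the same age (ZH 6D) are given beside some results, with 2 arrays each. The labels name the arrays of each group as biological replicates 1 and 2, and do not say whether they came from separate plants. The p-values therefore measure only the spread between samples. That spread, and the choice of probe sets tested, came from all 16 arrays in 8 groups. Of these groups, 2 were of another cultivar, the cold-resistant Hanfeng (HF 4D and HF 4D-2DC).

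Low temperature slows the enzymes and membranes of a filling seed and can disturb protein folding. Plant cells answer with chaperones, among them the small heat shock proteins, which bind unfolding proteins without using ATP, and heat stress transcription factors (HSFs), which switch on chaperone genes. A second set of answers passes through abscisic acid (ABA), the hormone that also drives the maturation of the embryo, and leads to late embryogenesis abundant (LEA) proteins and dehydrins, which protect cells when water is scarce. The DREB1 factors are the best known regulators of cold acclimation in rice seedlings. In the seed, these programs run beside starch and storage protein synthesis in the endosperm.

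The values were linear MAS5 signals from Affymetrix rice genome arrays, and were compared as log2(signal + 16). A log2 difference here is always ZH 10D-2DC minus ZH 12D, and fold changes are on this log2(signal + 16) scale, which understates the change of dim genes. Of 57381 probe sets, 187 were array controls and 34316 were tested with limma. The methods' threshold was an unadjusted p under 0.05 with a change of over 2-fold, and below "past the threshold" refers to it. No probe set passed a Benjamini-Hochberg adjusted p under 0.05 in limma (0 of 34316, 0.0%), and the smallest adjusted p was 1.0, so that the adjusted p of every gene named below was 1.0. At an unadjusted p under 0.05, 861 probe sets (2.51%) were counted, against the 5% that such a p takes where nothing differs. This fit had no term for the replicate number, and the gap between the numbers enters its spread. The 2.51% can therefore not be read against the 5%. With replicate number as a block, 2.78% were past the threshold as higher and 3.27% as lower, and none passed the adjusted p. The lists and genes below are therefore described by their values on each array and not as changes established one by one.

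The 2 replicate numbers stood apart on all arrays of the series. All arrays numbered 1 had a median signal between 85.9 and 172, whereas it lay between 49.8 and 60.1 in those numbered 2. Transcripts of green tissue also followed the replicate number. LHCP, a chlorophyll a/b binding protein, had a median over the 8 groups of 625 in replicate 1 and of 11130 in replicate 2. In the 4 arrays compared here, the summed signal of 9 endosperm markers (glutelins, prolamin, globulin and granule-bound starch synthase) was 1207000 and 224300 in ZH 10D-2DC replicates 1 and 2, against 912700 and 263400 in ZH 12D. All but GLUB-4 lay at the 71.8th percentile of their array or higher on each of the 4 arrays, as the label of whole seeds in grain filling implies. For this reason differences are also given within replicate 1 and within replicate 2.

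Within replicate numbers the seeds gave 2 partly different pictures. Over all tested probe sets, which are not independent of each other, the differences of replicate 1 and replicate 2 had a Pearson correlation of 0.125. Over 2-fold higher were 17.6% of the probe sets in replicate 1 and 11.8% in replicate 2, and over 2-fold lower 14.2% and 18.4%. Over 2-fold in the same direction in both replicates were 1011 higher probe sets (2.95% of those tested) and 1134 lower ones (3.3%), and 1391 (4.05%) differed by over 2-fold in opposite directions. Past the threshold, 363 probe sets (1.06%) lay higher in ZH 10D-2DC than in ZH 12D, and 498 (1.45%) lay lower. With replicate number as a block, since same-numbered arrays deviated together, 955 were higher (2.78%) and 1121 lower (3.27%), among them all 363 and all 498 of these, and again none passed the adjusted p. Median centring moved the median difference of all tested probe sets to -0.22 from -0.02 and gave 173 higher and 506 lower, so that 25.5% of the counted probe sets were higher instead of 42.2%. The balance turned the other way without a filter on dim probe sets (651 higher and 509 lower, 56.1% higher) and when replicate 2 of ZH 12D was left out (67.7% higher), so that neither direction was in excess under all these settings. Both conditions together, the threshold and over 2-fold in both replicates, held for 258 higher (0.752%) and 402 lower (1.17%) probe sets. Of these, 133 and 216 are paired with 1 gene, which are 127 and 213 genes, and only 26 and 33 of those genes have a name in the annotation. The other genes are given by their gene ID (LOC and a number), with no role.

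**Figure D1:**
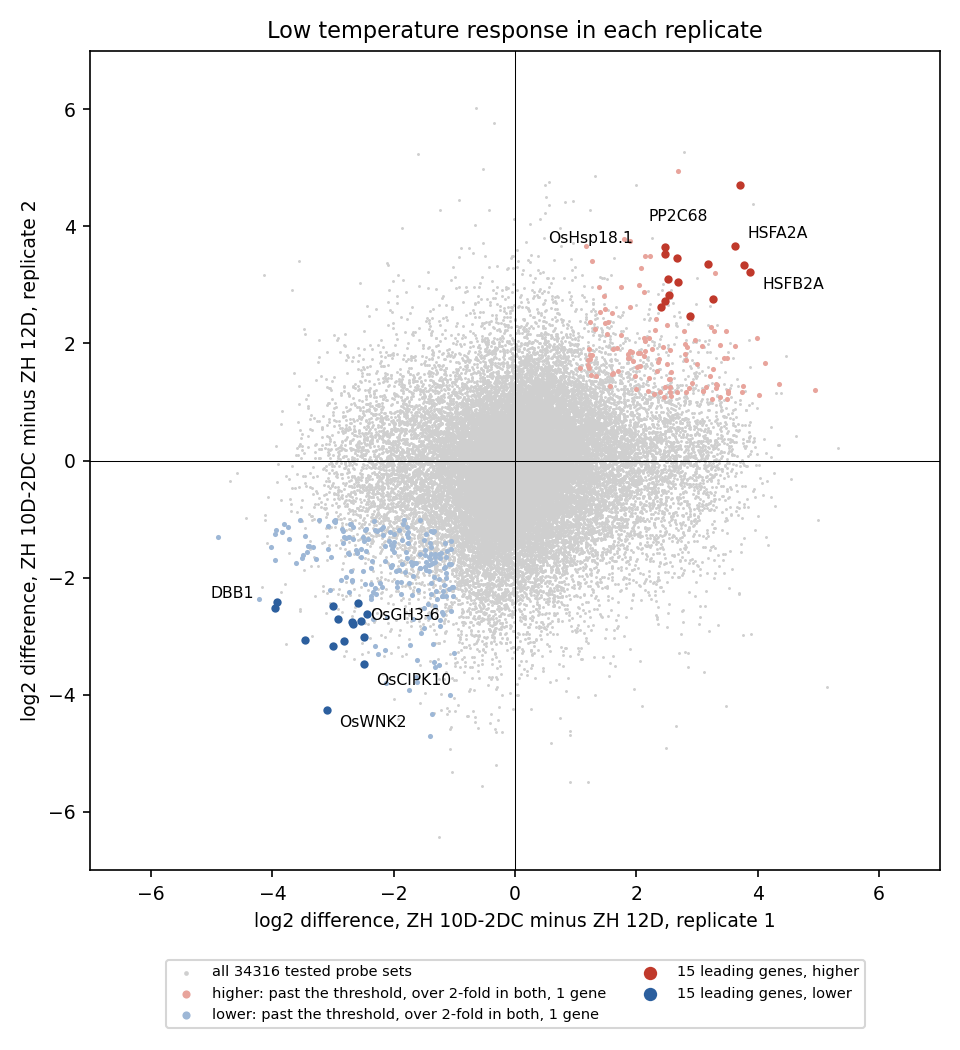
Each point is a tested probe set, with the log2 difference ZH 10D-2DC minus ZH 12D in replicate 1 on the x axis and in replicate 2 on the y axis. Pale red and pale blue points are those past the threshold and over 2-fold in both replicates that are paired with 1 gene. Dark points are the 15 leading genes in each direction, which all lie at 2.40 or higher, or at -2.42 or lower, in both replicates. They were picked by the smaller of their 2 differences, so that this position follows from the choice. The cloud of all 34316 probe sets has almost no slope (r = 0.125).

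HSFs were among the leading higher genes. HSFB2A, a class B heat stress factor encoded on chromosome 4, had signals of 1748 and 1744 in ZH 10D-2DC replicates 1 and 2, against 104 and 174 in ZH 12D. Both treated arrays lay far above both untreated ones and were nearly equal to each other (log2 10.78 ± 0.0027 in ZH 10D-2DC and 7.24 ± 0.47 in ZH 12D, SD, n = 2 each). The log2 difference was 3.54 (standard error 0.64, limma unadjusted p = 1.04e-04), 3.88 and 3.21 within replicates 1 and 2, and this p was the smallest of all probe sets tested. A second, brighter probe set of HSFB2A read 4529 and 5257 in ZH 10D-2DC and 446 and 553 in ZH 12D, a log2 difference of 3.25 (standard error 0.65). HSFA2A, on chromosome 3, belongs to the class A2 factors, which in plants sustain the expression of heat shock protein genes. Its signals were 453 and 260 in ZH 10D-2DC and 21.9 and 5.76 in ZH 12D, 12.5-fold higher (log2 difference 3.65, standard error 1.11, unadjusted p = 0.00618). All 3 of its probe sets were past the threshold, with log2 differences of 2.41 to 3.82.

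The seeds at the start of the treatment qualify these values. HSFB2A read 1059 and 304 in ZH 10D replicates 1 and 2, and HSFA2A 318 and 58.4. In replicate 1, the 10-day-old seeds at normal temperature thus already stood close to the treated seeds for both factors, and in replicate 2 they stood closer to ZH 12D. The same split was seen in the small heat shock protein OsHsp18.1, at 11740 and 1019 in ZH 10D.

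Of the 20 HSFs tested, 2 were past the threshold as higher and none as lower, 9 were higher and 5 lower in both replicates, where 1.06% and 1.45% of all tested probe sets were past the threshold and 27.3% and 28.5% higher and lower in both. The median difference was 0.29 beside -0.02 over all probe sets, with 0.14 and 0.40 within replicates 1 and 2. It was 0.03 when replicate 2 of ZH 12D was left out, which leaves the groups unequal in replicate number. With the replicate block HSFA2C (1.30, limma unadjusted p = 0.0305) was past the threshold too. HSFB2B had 820 and 251 in ZH 10D-2DC, against 256 and 53.6 in ZH 12D, with 1.62 and 1.94 within the replicates (mean 1.78, standard error 1.07), and was not past the threshold. HSFB2B and the other members given below without being past the threshold were chosen after their values were seen. HSFC2A had 877 and 2520, against 585 and 497 in ZH 12D (1.44, standard error 0.83). HSFA1, of the class A1 that starts the heat response in tomato and Arabidopsis, was at 1746 and 1484 in ZH 10D-2DC and at 2224 and 2043 in ZH 12D. The factors thus ranged from -1.12 for HSFA4D to 3.82 for the brightest probe set of HSFA2A. HSFB2C had probe sets that disagreed: its brightest differed by 0.65, while a dim one was at -2.56 and past the threshold as lower.

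The small heat shock proteins were the list with the highest median of the 40 lists compared. Of 17 tested members, 12 were higher and 3 lower in both replicates, against 27.3% and 28.5% of all tested probe sets. Past the threshold were 6 as higher and none as lower, where 1.06% and 1.45% of all tested probe sets were. The median difference was 1.14, with 1.18 and 1.16 within replicates 1 and 2. With the replicate block, 8 were past the threshold as higher and 1 as lower, where 2.78% and 3.27% of all were. This list was known from earlier results of these data to be the highest, so its rank is a description.

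OsHsp17.4 and OsHsp18.1 are encoded next to each other on chromosome 3, with no other protein gene between them, and HSP17.7 follows directly. OsHsp17.4 had signals of 7455 and 9769 in ZH 10D-2DC and of 1327 and 830 in ZH 12D, 8.02-fold higher (log2 difference 3.0, standard error 0.83, unadjusted p = 0.00317). OsHsp18.1 had 21810 and 15040 in ZH 10D-2DC and 3939 and 1188 in ZH 12D (3.05, standard error 1.22), and its 2 probe sets gave 2.86 and 3.05. HSP17.7 had 2485 and 4082 in ZH 10D-2DC and 853 and 776 in ZH 12D (1.95, standard error 0.78). In all 3 neighbours the lowest treated array was above the highest untreated one. Genes of this family are alike in sequence, and probe sets may share signal between them.

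OsHsp18.0, on chromosome 1, had 27740 and 16930 in ZH 10D-2DC and 6327 and 2284 in ZH 12D (2.51, standard error 0.80). Its 3 probe sets disagreed, from -1.13 to 2.51. OsHsp16.9B and OsHsp18.6 were also past the threshold, at 2.42 (standard error 0.98) and 2.17 (standard error 0.97). In both of them the difference was larger in replicate 2 than in replicate 1, 3.66 against 1.18 for OsHsp16.9B and 2.96 against 1.38 for OsHsp18.6. OsHsp24.1 gave almost the same difference in each replicate, 2.17 and 2.13, but was not past the threshold (6993 and 2435 in ZH 10D-2DC, 1540 and 544 in ZH 12D, standard error 1.23). With the replicate block it was past the threshold (limma unadjusted p = 0.0118), as was OsHsp21.9 (1.84, unadjusted p = 0.0282). OsHsp16.9A and OsHsp17.9A, which were bright on all 4 arrays, differed by 0.05 (standard error 1.19) and 0.43 (standard error 0.67). OsHsp18.8 and OsHsp22.3 were lower in both replicates, at -2.05 (standard error 1.88) and -1.05 (standard error 0.76), and OsHsp18.8 was past the threshold as lower with the block (unadjusted p = 0.0480).

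Other chaperones lay in both directions. Of 19 chaperones of the HSP90, HSP100 and related families, 8 were higher and 8 lower in both replicates, 42.1% each. Of all tested probe sets, 27.3% were higher and 28.5% lower in both. No chaperone of this list was past the threshold, and the median was -0.14. CLPB1, an HSP100 disaggregase that frees aggregated proteins together with small heat shock proteins, had 8388 and 4373 in ZH 10D-2DC and 2763 and 1633 in ZH 12D (1.51, standard error 0.73, unadjusted p = 0.0611, and 0.0242 with the replicate block, past the threshold). It was chosen after its value was seen.

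**Figure D2:**
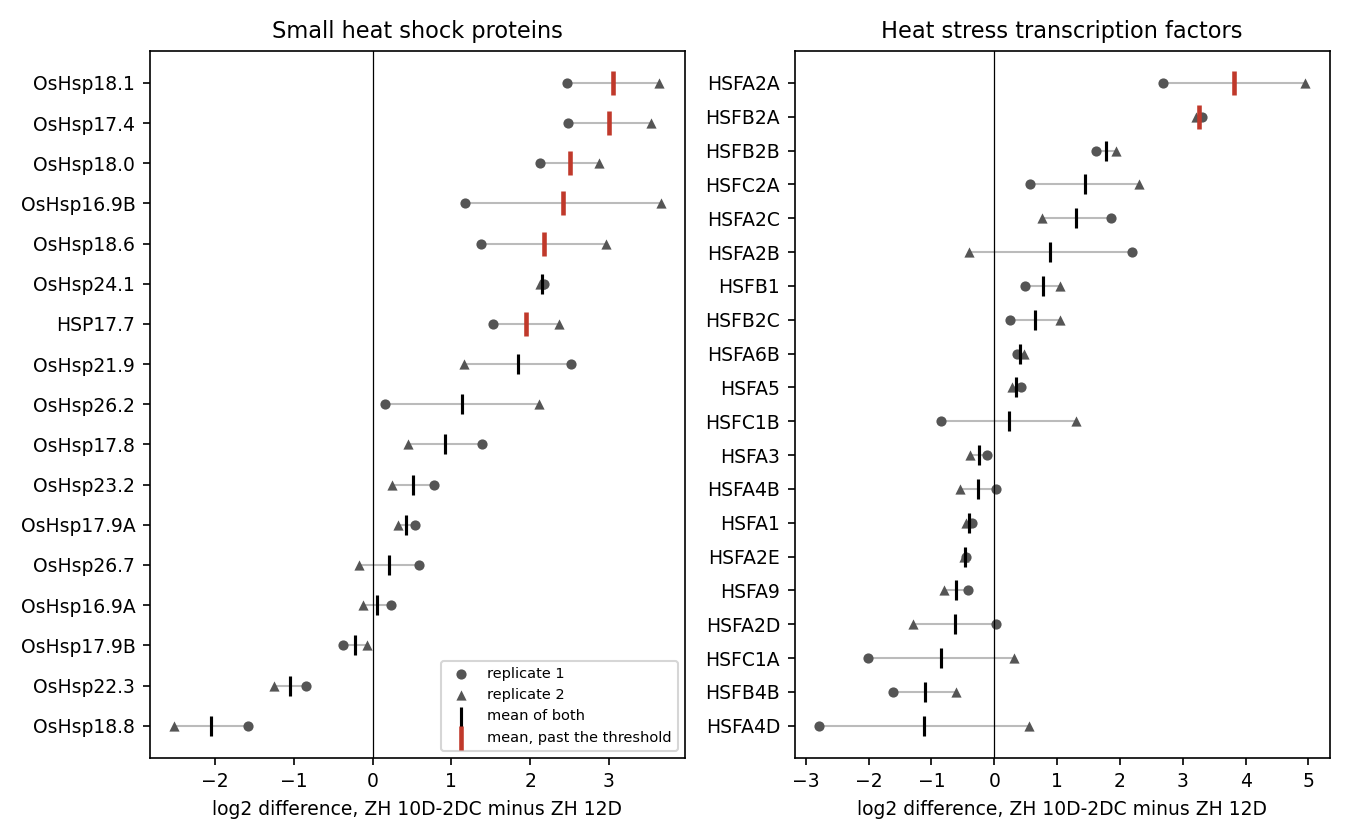
Log2 difference, ZH 10D-2DC minus ZH 12D, of each tested small heat shock protein (left) and heat stress transcription factor (right), each gene by the probe set whose mean was highest. Circles are replicate 1, triangles replicate 2 and bars their mean, red where past the threshold: 6 of 17 small heat shock proteins and 2 of 20 factors, all higher. Of all tested probe sets, 1.06% were past it as higher.

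PP2C68 stood out among the 27 genes of ABA synthesis, turnover and signaling. It is a type 2C protein phosphatase of the group that holds ABA signaling down and is itself raised by ABA. Its signals were 1617 and 5439 in ZH 10D-2DC and 240 and 481 in ZH 12D, 8.37-fold higher, with 2.68 and 3.46 within the replicates (mean 3.07, standard error 1.11, unadjusted p = 0.0168). OsPP2C30, of the same group, had 4970 and 8417 in ZH 10D-2DC and 1630 and 1454 in ZH 12D (2.06, standard error 0.88). OsPP2C09, chosen after its value was seen, had 1736 and 2867 in ZH 10D-2DC and 841 and 1221 in ZH 12D (1.13, standard error 0.75). The 3 phosphatases were each higher on both treated arrays than on both untreated ones. Of the other type 2C phosphatases in the list, OsPP2C08 was higher in both replicates (0.58). OsPP2C27 (-0.01), OsPP2C51 (-0.32) and PP2C53 (0.29) differed in opposite directions between replicates. The list as a whole was not shifted: its median was -0.01, and 9 genes were higher (33.3%) and 8 lower (29.6%) in both replicates. Of all tested probe sets, 27.3% were higher and 28.5% lower in both, and 1.06% were past the threshold as higher. The phosphatases PP2C68 and OsPP2C30 were the only members past the threshold. OsVP1, the ABA-dependent regulator of embryo maturation, differed by 0.04, and OsABA8ox1, an ABA-degrading hydroxylase, by -1.16 (standard error 1.28).

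Transcription factors of stress and hormone responses were among the leading genes. OsNAC5, a NAC factor that responds to drought, cold and ABA in rice, had 216 and 624 in ZH 10D-2DC and 9.72 and 46.4 in ZH 12D, 9.62-fold higher (3.27, standard error 1.25). Its 3 probe sets gave 1.46 to 3.27, and these signals are of a dim one. The brightest probe set of OsNAC5 was the one at 1.46 (standard error 0.97) and was not past the threshold. The third differed by -0.52 and 4.98 within replicates 1 and 2. OsHox24 and OsHox14 are homeodomain-leucine zipper factors of the class that includes many drought-responsive genes. OsHox24 had 241 and 586 in ZH 10D-2DC, against 53.5 and 28.9 in ZH 12D (2.82, standard error 0.99), and OsHox14 had 279 and 307, against 26.6 and 53.5 (2.50, standard error 1.01). OsHox29, a class III member, was at 200.3 and 105 in ZH 10D-2DC and at 25.1 and 37.6 in ZH 12D (1.79, standard error 0.81). Of 45 homeobox genes tested, 3 were thus past the threshold as higher and none as lower, 17 were higher and 5 lower in both replicates (37.8% and 11.1%, against 27.3% and 28.5% of all tested probe sets, of which 1.06% were past the threshold as higher), and the median was 0.17. OsWRKY71, which acts against gibberellin signaling in aleurone cells, differed by 1.19 (standard error 1.27) with its brighter probe set and by 2.60 (standard error 0.77) with a dim one.

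Few members of the hormone lists were past the threshold, and they lay in both directions. They were 1 of 65 auxin genes as lower, 1 of 28 cytokinin genes as higher and 1 as lower, and 1 of 14 gibberellin genes as higher. Of all tested probe sets, 1.06% were past it as higher and 1.45% as lower. GA20OX2, a gibberellin 20-oxidase of the gibberellin pathway, had 261 and 307 in ZH 10D-2DC and 8.61 and 80.4 in ZH 12D (2.62, standard error 0.85). OsGH3-6, of the family that couples auxin to amino acids, was lower, at 52.3 and 39.0 in ZH 10D-2DC and 418 and 365 in ZH 12D (-2.73, standard error 0.70, unadjusted p = 0.00188). LOGL3 and LOGL10, of the family that releases active cytokinin, moved apart. LOGL3 was at 146 and 85.1 in ZH 10D-2DC and 6.28 and 27.1 in ZH 12D (2.05, standard error 0.85), whereas LOGL10 was at 29.1 and 184 in ZH 10D-2DC and 499.9 and 615 in ZH 12D (-2.59, standard error 0.81). As lists, these hormones differed little. The median was 0.08 for 65 auxin, -0.20 for 28 cytokinin, -0.30 for 14 gibberellin and -0.28 for 15 brassinosteroid genes.

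**Figure D3:**
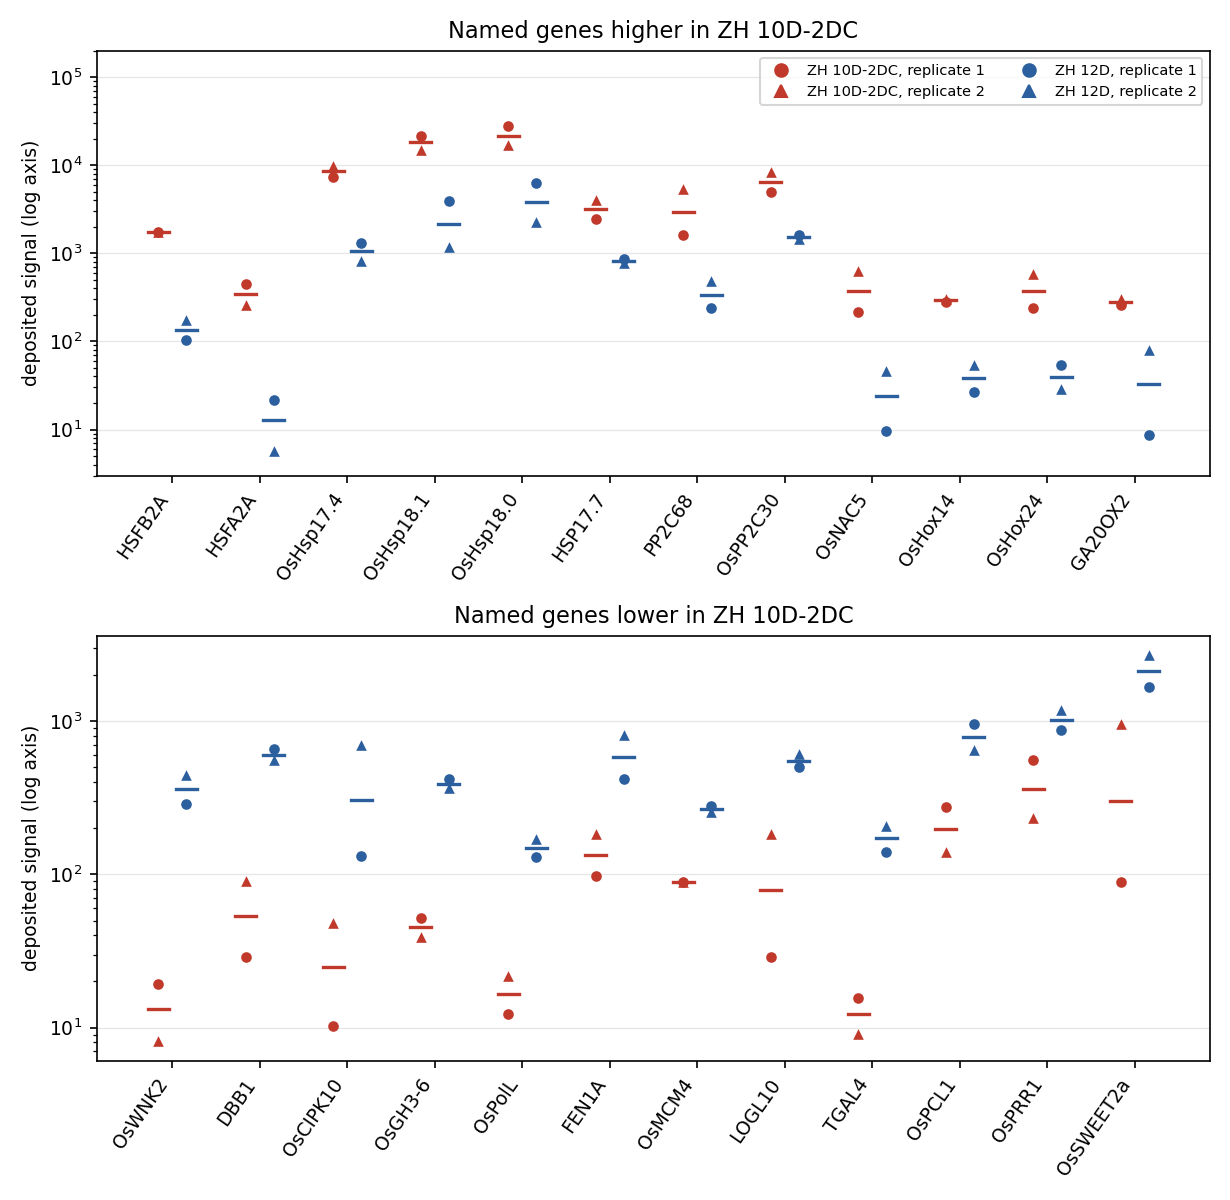
Deposited signal (log axis) of 24 named genes on the 4 arrays, ZH 10D-2DC in red to the left of ZH 12D in blue, with circles for replicate 1, triangles for replicate 2 and bars for the group mean of log2(signal + 16). In each gene both red points lie on the same side of both blue points, above in the upper panel (HSFB2A 1748 and 1744 against 104 and 174) and below in the lower one (OsGH3-6 52.3 and 39.0 against 418 and 365).

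Genes of cold acclimation lay higher without passing the threshold. Of 14 tested members, 10 were higher and none lower in both replicates, against 27.3% and 28.5% of all tested probe sets. The median difference was 0.91, with 0.73 and 0.77 within replicates 1 and 2. It was 0.54 to 0.94 with 1 array left out, the lowest without replicate 1 of ZH 12D. No member was past the threshold in either direction. The regulator DREB1A had 720 and 1067 in ZH 10D-2DC and 248 and 448 in ZH 12D (1.35, standard error 0.76). In the seeds at the start of the treatment (ZH 10D), DREB1A was at 475 and 1859. The treated seeds thus stood above these in replicate 1 and below them in replicate 2. Its relatives DREB1G, OsDREB1E and DREB1B differed in opposite directions between replicates. The membrane protein genes LTI6B and LTI6A, induced by low temperature, were at 1.11 (standard error 0.75) and 1.25 (standard error 1.63). OsPM19L1, a membrane protein of the AWPM-19 family, had 38560 and 24600 in ZH 10D-2DC and 16190 and 8093 in ZH 12D (1.43, standard error 0.99). The members other than LTI6B and RAB21 were named after their values were seen.

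Dehydrins and LEA proteins overlapped with this list in 6 genes. All 6 were among the 10 cold acclimation genes higher in both replicates, so that the 2 lists are not separate results. All 8 tested LEA genes were higher in both replicates, where 27.3% of all tested probe sets were. Their median was 0.67, and none was past the threshold. The median was 0.22, with 5 genes positive and 3 negative, when replicate 1 of ZH 10D-2DC was left out, 1.06 when replicate 2 was, and 0.43 without replicate 2 of ZH 12D. These fits leave the groups unequal in replicate number, and within replicates 1 and 2 the median was 0.75 and 0.50. RAB16C had 6393 and 12120 in ZH 10D-2DC and 2451 and 3151 in ZH 12D (1.66, standard error 0.89), and RAB16B 15790 and 14280 against 7853 and 7182 (0.998, standard error 0.88). RAB21 and Osem, a LEA protein of the embryo, were at 0.53 (standard error 1.74) and 0.45 (standard error 1.11). These genes also mark the embryo. Of 10 embryo markers, 9 were higher and none lower in both replicates, against 27.3% and 28.5% of all tested probe sets. Their summed signal was 341200 and 158000 in ZH 10D-2DC, against 215000 and 122900 in ZH 12D. The markers outside the LEA list, OsVP1 and OSH1, differed by 0.04 and 0.25. In whole seeds, fewer cells of a type and less RNA per cell cannot be told apart, and the part of the embryo's share in this result was not tested.

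Some genes of DNA replication and repair were past the threshold as lower, 2 of 29 and 3 of 27 tested, where 1.45% of all tested probe sets were. With the replicate block they were 3 and 5, where 3.27% of all were. OsPolL, the repair polymerase lambda, was at 12.3 and 21.6 in ZH 10D-2DC and at 130.5 and 171 in ZH 12D (-2.34, standard error 0.68, unadjusted p = 0.00457). FEN1A, the flap endonuclease that trims Okazaki fragments, had 97.0 and 183 in ZH 10D-2DC and 421 and 819 in ZH 12D (-2.01, standard error 0.86). OsMCM4, a subunit of the replicative helicase, had 89.0 and 89.8 in ZH 10D-2DC and 281 and 254 in ZH 12D (-1.43, standard error 0.60). OsSPO11B and OsSEND-1, a single-strand DNA endonuclease, were at -2.03 (standard error 0.71) and -2.28 (standard error 0.76). The probe sets of OsSPO11B ranged from -2.03 to 0.47.

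As lists, the repair genes had a median of -0.53, and 14 were lower (51.9%) and 4 higher (14.8%) in both replicates. The replication genes had a median of -0.29, and 12 were lower (41.4%) and 6 higher (20.7%) in both. Of all tested probe sets, 28.5% were lower and 27.3% higher in both. Both medians rested on replicate 2: they were -0.07 (repair) and 0.07 (replication) within replicate 1 and -0.66 and -0.62 within replicate 2. When replicate 2 of ZH 10D-2DC was left out they were -0.07 and 0.08, in a fit that leaves the groups unequal in replicate number. Of the other helicase subunits, OsMCM2, OsMCM3, OsMCM5 and OsMCM7 lay at -0.69, -1.23, -0.83 and -0.88, and OsMCM6 at -0.08, with 1.17 in replicate 1 and -1.33 in replicate 2. OsMCM3 was past the threshold with the block (limma unadjusted p = 0.0423). Of 45 kinesin and tubulin genes, 21 were lower and 4 higher in both replicates (46.7% and 8.9%, against 28.5% and 27.3% of all tested probe sets). Their median was -0.43 (-0.63 to -0.21 with 1 array left out, the smallest without replicate 1 of ZH 12D), and the 1 member past the threshold, the kinesin KIN14K, was higher (2.57, standard error 0.93). With the block KIN13B and KIN14H were past the threshold as lower (-1.53 and -1.32), where 3.27% of all tested probe sets were. A second probe set of KIN14K was at -0.20. The summed signal of 9 cell division markers was 2406 and 1037 in ZH 10D-2DC and 3021 and 1942 in ZH 12D.

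DBB1, listed with the alias OsUV-DDB1 and so named for the binding of UV-damaged DNA, was among the leading lower genes. It had 28.7 and 90.9 in ZH 10D-2DC and 661 and 556 in ZH 12D (-3.17, standard error 0.80). Its brighter probe set read 1848 and 1566 against 2908 and 2782 (-0.74, standard error 0.88). Such disagreement was common: of the 128 genes past the threshold in both replicates that have over 1 tested probe set, the brightest probe set was past the threshold the same way in 42 and had the same sign in 105.

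The kinase OsWNK2 had the lowest difference of the named genes. This with-no-lysine kinase was at 19.2 and 8.13 in ZH 10D-2DC, against 288 and 448 in ZH 12D, 12.9-fold lower (-3.69, standard error 1.09, unadjusted p = 0.00522). A second probe set was at -0.81. OsCIPK10, a kinase driven by calcineurin B-like calcium sensors, had 10.2 and 48.1 in ZH 10D-2DC and 131 and 700.1 in ZH 12D (-2.99, standard error 0.93), and its 4 probe sets gave -2.99 to 0.35. A sensor of that family, CBL2 (LOC4325962), was also lower, at 76.3 and 102 in ZH 10D-2DC and 593 and 235 in ZH 12D (-1.91, standard error 0.69), whereas the calmodulin-like CML11 was higher (1.88, standard error 0.76). Of 72 calcium signaling genes these 2, CBL2 and CML11, were those past the threshold among the probe sets of the highest mean, where 2.51% of all tested probe sets were, and the list's median was -0.07. With the block 4 members were past it as higher and 3 as lower, where 2.78% and 3.27% of all tested probe sets were.

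OsPCL1 and OsPRR1 are components of the evening loop of the circadian clock, and OsPRR1 is also known as TOC1. OsPCL1 had 276 and 141 in ZH 10D-2DC and 964 and 651 in ZH 12D (-1.92, standard error 0.73), and OsPRR1 had 556 and 235 against 881 and 1185 (-1.45, standard error 0.62). They were the 2 of 7 clock genes lower in both replicates (28.6%, against 28.5% of all tested probe sets). The other 5 differed in opposite directions between replicates. GI was at 0.81 and -1.78, and OsCCA1 at -0.74 and 0.49 within replicates 1 and 2. The time of day at which seeds were taken was not given in the sources used here.

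Sugar supply, starch and storage proteins had list medians near 0. The 10 starch synthesis genes had a median of -0.11, the 11 storage protein genes of 0.16 and the 31 genes of sucrose metabolism and transport of -0.12. With quantile normalization and with median centring the storage protein median was -0.16 and -0.04. With 1 array left out it ranged from -0.82 (no replicate 1 of ZH 10D-2DC, 0 of 11 genes positive) to 1.32 (no replicate 2 of ZH 10D-2DC). Such fits leave the groups unequal in replicate number, so that the gap between the numbers enters the median. Within replicates 1 and 2 the storage protein median was 0.40 and -0.09, so that it had no settled direction. OsSWEET2a, a sugar transporter, was the 1 member of these lists past the threshold, at 88.6 and 963 in ZH 10D-2DC and 1686 and 2709 in ZH 12D (-2.75, standard error 1.18). The cell wall invertase OsCIN2, which unloads sucrose into the filling grain, was chosen after its value was seen. It had 22.9 and 353 in ZH 10D-2DC and 193 and 2547 in ZH 12D, with -2.43 and -2.79 within the replicates (mean -2.61, standard error 1.55). With the replicate block it was past the threshold as lower (limma unadjusted p = 0.00796), while the invertase OsCIN3 was past it as higher (2.53, unadjusted p = 0.00417). The 2 treated arrays were each lower than the untreated array of their number, but the groups overlapped.

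Photosynthesis had the lowest list median, -0.84 over 17 genes, and none was past the threshold. In both replicates 8 were lower (47.1%) and 1 higher (5.88%), against 28.5% and 27.3% of all tested probe sets. LHCP had 209 and 4090 in ZH 10D-2DC and 430 and 8299 in ZH 12D. CAB2R, another chlorophyll a/b binding protein, had 1129 and 18830 in ZH 10D-2DC and 2662 and 26940 in ZH 12D. PETE, plastocyanin, had 36.5 and 6901, against 266 and 11600 in ZH 12D. In each of the 3 the gap between replicate numbers was far larger than that between temperatures. The standard errors were 1.43 to 2.45, from the fit without a block, so that this gap enters them. Within replicates 1 and 2 LHCP differed by -0.99 and -1.02, CAB2R by -1.2 and -0.52, and PETE by -2.42 and -0.75. With the replicate block LIR1 was past the threshold as lower (-2.53, limma unadjusted p = 0.026). Leaving out replicate 1 of ZH 10D-2DC turned the list's median to 0.31, and leaving out replicate 2 of ZH 12D turned it to 0.75. Such fits leave the groups unequal in replicate number, so that the gap between the numbers enters the median. Within replicates 1 and 2 the list's median was -0.99 and -0.56.

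**Figure D4:**
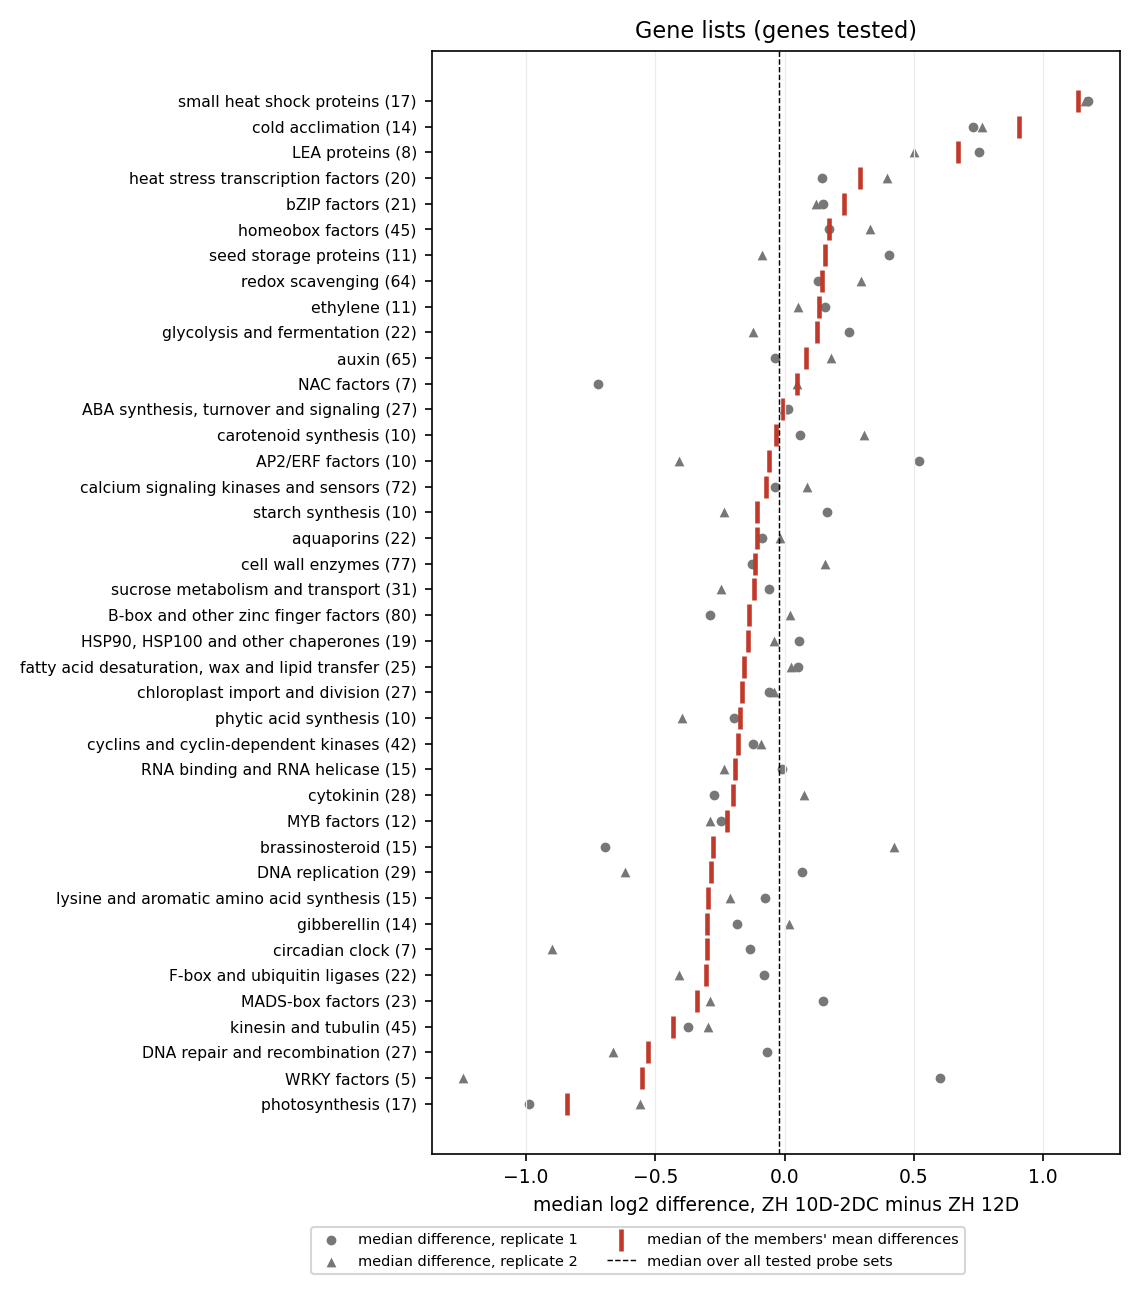
Median log2 difference, ZH 10D-2DC minus ZH 12D, of 40 gene lists (number of genes tested in brackets), with red bars for the median of the members' mean differences, circles and triangles for the medians within replicates 1 and 2, and a dashed line for all tested probe sets (-0.02). Small heat shock proteins (1.14), cold acclimation (0.91) and LEA proteins (0.67) lie to the right in both replicates, whereas photosynthesis (-0.84) lies to the left. The lists of cold acclimation and LEA proteins share genes.

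The remaining lists gave single members. Past the threshold were 1 of 64 redox genes as higher and 1 as lower, 2 of 77 cell wall and 2 of 80 zinc finger genes as lower. So were 1 of 21 bZIP genes as lower and 1 of 25 lipid genes as higher. Of all tested probe sets, 1.06% were past it as higher and 1.45% as lower. GSTU6, a glutathione S-transferase, was higher at 2738 and 6137 in ZH 10D-2DC, against 724 and 984 in ZH 12D (2.26, standard error 0.93), and the thioredoxin OsTrx01 lower at 7.98 and 167, against 300.2 and 447 (-2.53, standard error 1.04). The cellulose synthase-like genes OsCslF8 and OsCslE2 were lower, at -1.83 (standard error 0.78) and -1.46 (standard error 0.67). The bZIP factor TGAL4 was lower, at 15.7 and 9.05 in ZH 10D-2DC and 141 and 209 in ZH 12D (-2.74, standard error 0.90). Lower zinc finger genes were OsLOL2 (LOC4325320), at -1.67 (standard error 0.71), and OsC3H3, at -2.45 (standard error 1.01). The phospholipase gene pla2-I was higher (1.42, standard error 0.62). In 22 of the 40 lists no member was past the threshold with the probe set of its highest mean. Among them were AP2/ERF (10 genes), MYB (12), WRKY (5), MADS-box (23) and aquaporin (22) genes. With 2.51% of all tested probe sets past the threshold in either direction, a short list is likely to hold none. With the replicate block, where 2.78% of all were past it as higher and 3.27% as lower, 14 lists had no such member.

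Most of the leading genes had no name. The 15 highest and 15 lowest genes, ranked by the smaller of their 2 within-replicate differences, held 9 unnamed genes among the higher and 11 among the lower. LOC4326757, on chromosome 1, had the largest difference, with 304 and 984 in ZH 10D-2DC and 8.62 and 22.4 in ZH 12D, 18.4-fold higher (4.20, standard error 1.26). Its 2 brighter probe sets were not past the threshold. They differed by 2.62 (standard error 1.54) and 3.08 (standard error 1.66), with 0.82 and 4.4, and 1.31 and 4.85, within replicates 1 and 2. LOC4336796 and LOC4336797 are neighbours on chromosome 4 and were both higher. LOC4336797 had 10410 and 12630 in ZH 10D-2DC and 1777 and 1770 in ZH 12D (2.68, standard error 0.68, unadjusted p = 0.00182), and LOC4336796 had 2528 and 8516, against 328 and 1526 (2.68, standard error 1.21). In ZH 10D they were at 10030 and 13910 and at 1887 and 9717. For this pair the treated seeds stood at the level of 10-day-old seeds, and the untreated 12-day-old seeds lay below it. LOC4342205, on chromosome 7, was at 353 and 342 in ZH 10D-2DC and 22.6 and 36.9 in ZH 12D (3.01, standard error 0.79), and a second probe set at 0.25.

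Of the lower unnamed genes, LOC9271722 had 20.2 and 69.9 in ZH 10D-2DC, against 381 and 702 in ZH 12D (-3.26, standard error 0.71, unadjusted p = 5.38e-04). A brighter probe set of LOC9271722 was at -0.24, with 0.34 and -0.82 within the replicates. LOC4349256 had 19.0 and 32.3, against 528 and 261 in ZH 12D (-3.24, standard error 0.71). LOC4325243 had 13.4 and 23.3, against 205 and 242 in ZH 12D (-2.81, standard error 0.67). The 15 lower genes were dim throughout, at 5.47 to 148 in ZH 10D-2DC and 131 to 986 in ZH 12D. The 15 higher genes reached 122 to 21810 in ZH 10D-2DC and 5.49 to 3939 in ZH 12D. The files used here held no detection calls, so signals of a few units are not known to be above background.

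In seeds at the start of the treatment (ZH 10D), most of these probe sets lay between the groups compared, 232 of the 258 higher ones (89.9%) and 347 of the 402 lower ones (86.3%). They were chosen for the gap between ZH 10D-2DC and ZH 12D, so that a group from other arrays is likely to fall inside it, and the values are a description. For the higher probe sets the median of ZH 10D minus ZH 10D-2DC was -1.13 and that of ZH 10D minus ZH 12D was 1.11. For the lower ones these medians were 1.40 and -0.62.

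The same genes were also read in seeds treated from 4 DAF, a comparison that shares no array with this one but the same filter and estimate of spread. In ZH 4D-2DC minus ZH 6D, 61.2% of the 258 higher probe sets were positive (median 0.33) and 63.7% of the 402 lower ones negative (median -0.22), against 52.4% and 47.6% of all tested probe sets (median 0.04). Past the threshold at 4 DAF in the same direction were 15 of the 258 and 20 of the 402, against 0.644% and 0.562% of all tested probe sets. Probe sets with a small estimated spread pass more readily at both ages, so that these counts are a description. Of the 15 leading higher genes, 13 were positive at 4 DAF, with a median of 1.36, and of the 15 lower genes 10 were negative, with a median of -0.18. OsHsp18.1 differed by 2.97 (standard error 1.22) at 4 DAF, LOC4326757 by 2.96 (standard error 1.26) and LOC4332079 by 1.75 (standard error 0.68). OsGH3-6 differed by -1.66 (standard error 0.70) and LOC4348157 by -2.07 (standard error 0.78).

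Whether a response differed between the ages was tested as the difference of both. None passed an adjusted p under 0.05 (0 of 34316, limma, smallest adjusted p = 0.9999), and 428 probe sets (1.25%) had an unadjusted p under 0.05. The leading genes were chosen for their difference at 10 DAF, which enters that test, so their values at both ages are given without it. HSFB2A differed by 3.54 at 10 DAF and 1.36 at 4 DAF, and LOC4336797 by 2.68 and -0.44. OsWNK2 differed by -3.69 and 0.89, and LOC4325243 by -2.81 and 0.59. The small heat shock protein list had a median of 1.14 at 10 DAF and of 0.36 at 4 DAF, where 1 member was past the threshold as higher and 1 as lower, and the cold acclimation list had 0.91 and 0.26.

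**Figure D5:**
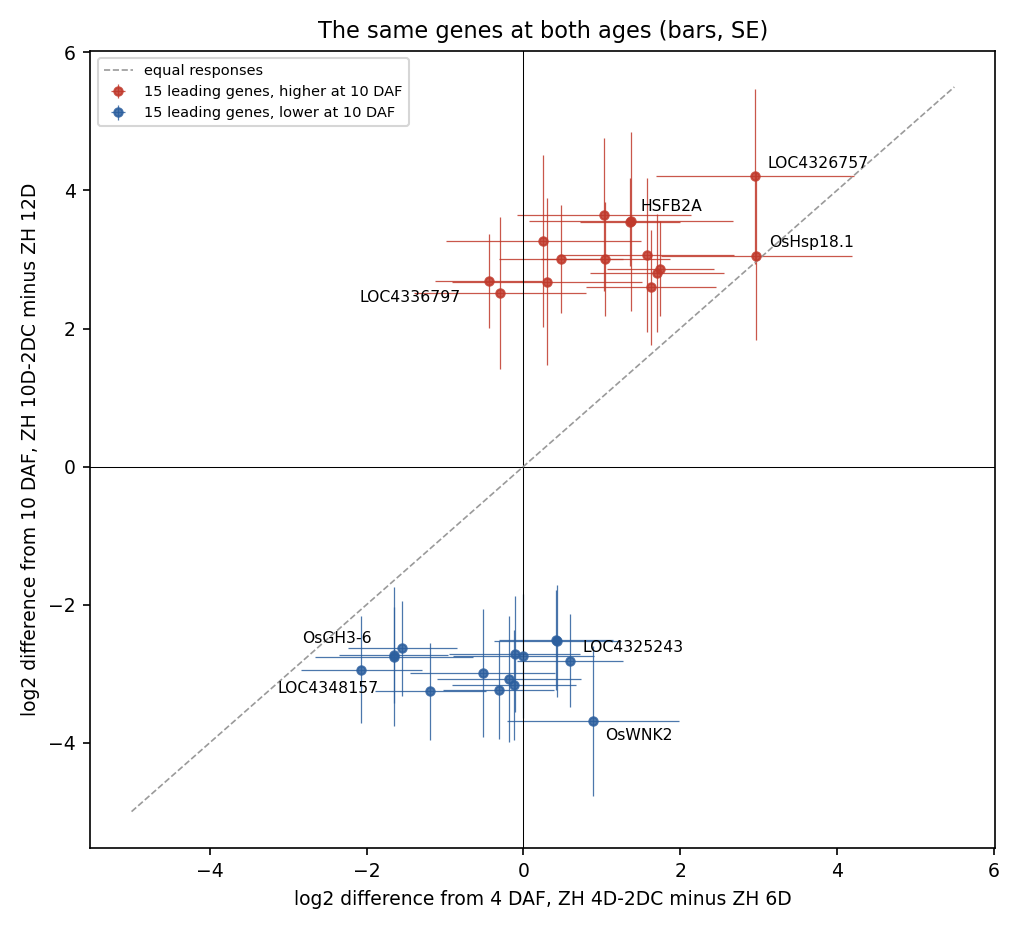
Log2 differences of the 15 leading higher (red) and 15 leading lower genes (blue), with the response from 4 DAF (ZH 4D-2DC minus ZH 6D) on the x axis and the response from 10 DAF (ZH 10D-2DC minus ZH 12D) on the y axis, bars for standard errors and a dashed line where both are equal. Of the higher genes 13 lie right of 0 and OsHsp18.1 lies on the line (2.97 and 3.05), whereas the lower genes scatter around 0 on the x axis (median -0.18).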

How the data were processed

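Total RNA of whole seeds, extracted with TRIzol, was hybridized to Affymetrix rice genome arrays, 1 array per sample. The deposited intensity values are linear MAS5 signals, per the labels, with a 2% trimmed mean of 494 to 498 on each of the 16 arrays, whereas the study's methods name GC-RMA. Of the 57381 probe sets, the platform annotation gave 1 gene for 22436, several for 95 and no gene for 34850. Control probe sets (187) and those with a mean at or below the 40th percentile were removed. Linear models with 1 coefficient for each of the 8 groups were fitted to log2(signal + 16) with limma 3.58.1 in R 4.3.3. A test on simulated data for ZH 10D-2DC over ZH 12D, on 34316 probe sets, recovered the sign of 99.0% of changes of 2 on the log2 scale, and found 71.9% past the threshold and 0.0% past the adjusted p (93.3% and 15.6% for changes of 4). With 2 against 2 arrays the smallest p of an exact permutation test is 0.33, and none was run.

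Same-numbered arrays deviated together in all 28 pairs of groups (r = 0.216 to 0.639, 0.429 for ZH 10D-2DC and ZH 12D), so that the replicate numbers pair the samples, and a fit with replicate number as a block was run. Lists (40, with 1113 genes) held genes by symbol, each with its probe set of the highest mean. Named were the 15 highest and 15 lowest genes by the smaller within-replicate difference among those past the threshold and over 2-fold in both replicates, up to 4 members of each list past the threshold (otherwise 2 of the highest mean), and genes the study names that could be matched (OsPCL1 and OsPRR1). Members and lists were chosen with earlier results of these data known. Other settings tried were pseudocounts of 4 and 64, other filters, quantile normalization, median centring, fewer arrays and each array left out. With 2 arrays per group, their number limits the precision. Gene order for neighbours came from the RefSeq gene table (ASM3414082v1), and no sequence was used.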

Additional observations from a re-analysis of the deposited data

How the results depend on the processing

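No probe set passed the adjusted p, for the low temperature response or for its difference between ages, under any setting run. Without a filter the threshold gave 651 higher and 509 lower, and 1989 were over 2-fold higher in both replicates, and with the filter at the 60th percentile 205 were higher at the threshold and 463 over 2-fold higher in both. With a pseudocount of 64, 388 were over 2-fold higher and 618 over 2-fold lower in both replicates. Median centring gave 173 higher at the threshold, and 670 higher and 1944 lower in both replicates. The replicate block gave 955 higher and 1121 lower, and 878 and 1091 with quantile normalization. Leaving out 1 array at a time gave 264 to 708 higher and 274 to 821 lower, against 363 and 498. In ZH 10D-2DC, leaving out replicate 1 gave 821 lower, and leaving out replicate 2 gave 708 higher with 766 lower. In ZH 12D, leaving out replicate 1 gave 307 lower, and leaving out replicate 2 gave 573 higher with 274 lower. Leaving out an array leaves the groups unequal in replicate number, so that differences between the replicate numbers enter the comparison. The lone array was assumed to vary like the other groups. The median of the small heat shock proteins was 1.14, and 1.10 and 1.15 with pseudocounts of 64 and 4, 1.03 without a filter, 1.26 with quantile normalization, also with the block, 0.93 with median centring, and 0.78 to 1.54 with 1 array left out. The cause of these shifts was not tested. No gene of the 30 leading ones turned its sign under any setting that tested it (the 60th percentile filter left 21 of them), whereas 8 fell short of the threshold with median centring and 4 to 8 with 1 array left out. The 30 leading genes were chosen on these same arrays for a large difference of the same sign in both replicates. That they kept their sign was thus nearly fixed in advance. With 1 array left out, the difference took both signs for CAB2R (-2.89 to 1.15), LHCP (-3.11 to 1.11), PETE (-5.11 to 1.94), RAB21 (-0.44 to 1.49), Osem (-0.13 to 1.04) and LTI6A (-0.50 to 2.997).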
